A study of Mus musculus with 15 samples.

Results

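The 9 long noncoding RNAs of the brain named here, Meg3, Rian, Mirg, Miat, Malat1, Neat1, Snhg11, Dlx6as1 and Dlx1as, were followed across the cerebellum (Ce) and the striatum (St) of mice from a line bred for high voluntary wheel running (Hi) and from a control line (Co). They were taken by symbol from a table of 26628 genes, and all 9 were found in it and passed the filter on low values. Of the 9, only Snhg11 differed between the lines at the threshold used. It was 47.2% lower in the CeHi than in the CeCo libraries, and this line effect was larger in the Ce than in the St. Between the regions 8 of the 9 differed, which is near the 80.2% of all genes tested that did. Dlx6as1 and Dlx1as were near the counting floor in the Ce, Miat was 13.5-fold higher in the St, and Mirg was 1.46-fold higher in the Ce.

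Long noncoding RNAs are transcribed and usually spliced and polyadenylated like messenger RNAs, but act as RNA or through the act of their own transcription. Meg3, Rian and Mirg lie in the imprinted Dlk1-Dio3 domain and are expressed from the maternal chromosome, with Rian carrying C/D box snoRNAs and Mirg hosting a large cluster of microRNAs (miRNAs). Malat1 is a nuclear RNA of the splicing speckles, Neat1 is the scaffold of paraspeckles, and Miat, also called Gomafu, is a nuclear RNA of neurons with repeats that bind splicing factor 1. Snhg11 is a snoRNA host gene whose spliced RNA is abundant in neurons, and Dlx6as1 (also called Evf2) and Dlx1as are transcribed opposite to the Dlx homeobox genes of GABAergic neurons.

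The study compared line, region and their interaction by RNA sequencing of individual samples from male mice of the Hsd:ICR strain, 6 weeks old by the labels. All mice, the Co mice included, were kept singly with a running wheel for 7 days before the brain was taken, by the series description. The methods of the study state the age and the days with a wheel differently. The groups were CeCo (n = 4), CeHi (n = 4), StCo (n = 4) and StHi (n = 3), and a further StHi sample, which the study removed for standing apart, was not analysed here. Each line was a single breeding line, so that selection for running and chance divergence of the lines cannot be told apart. The study also reports that the Hi mice ran more and faster than the Co mice while they had a wheel. An inherited difference between the lines and an effect of the running itself can therefore not be told apart either.

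The libraries held 32909383 to 47485535 counted fragments, with a median of 42676158. The deposited values are fragment counts divided by 1 factor per library, called normalised counts below, in which 1 fragment was worth 0.841 to 1.30. CeHi replicate 3 stood apart: on the first principal component of all genes tested it scored -66.7, where the other Ce libraries scored -83.1 to -89.6 and the St libraries 92.4 to 101.1. Results that rest on this library are given with and without it. The labelled tissues held their markers, with a summed normalised count of 8 cerebellar granule cell markers of 245345 to 303721 in the Ce and 5010 to 6866 in the St, and of 13 striatal projection neuron markers of 248965 to 338822 in the St and 15583 to 17822 in the Ce. In whole tissue, fewer cells of a type and less RNA per cell cannot be told apart.

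The genes sit at 6 loci of the GRCm38 genome (GENCODE M21 annotation). Meg3 at chr12:109541001-109571726, Rian at chr12:109603940-109661716 and Mirg at chr12:109729764-109749460 follow each other on the plus strand. Malat1 at chr19:5795690-5802672 and Neat1 at chr19:5824708-5845478 are neighbours on the minus strand, 22036 bases apart. Miat is at chr5:112213228-112229395 on the minus strand, and Snhg11 at chr2:158375638-158386145 on the plus strand with 2 snoRNA genes inside it. Although Snhg11 is known as a host RNA, the annotation gives it the type protein_coding. Dlx6as1, named Dlx6os1 in the annotation, is at chr6:6820189-6871592 and Dlx1as at chr2:71516454-71537891, both on the minus strand and typed as antisense. Dlx1as shares exon bases with Dlx1 on the opposite strand and Dlx6as1 overlaps Dlx6 without shared exon bases. Whether the libraries kept strand is not given in the sources used here. Reads from the exon bases that Dlx1as and Dlx1 share can therefore not be told apart.

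The small RNAs inside Meg3, Rian and Mirg are shown because they are what these hosts are best known for, and because the libraries did not measure them. Mirg spans 14 miRNA genes with 26 mature sequences and 25 different seeds, Meg3 2 miRNA genes, and Rian 4 miRNA and 13 snoRNA genes. The only seed that occurred in more than 1 of the Mirg miRNAs was that of miR-453 and miR-496a-5p. Sequences are from RefSeq (GRCm38.p6), written in the 5′ to 3′ direction with the seed, bases 2 to 8, in capitals.
mmu-miR-453 (in Mirg): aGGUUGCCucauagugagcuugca
mmu-miR-496a-5p (in Mirg): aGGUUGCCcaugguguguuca
mmu-miR-134-5p (in Mirg): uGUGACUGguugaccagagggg
mmu-miR-410-3p (in Mirg): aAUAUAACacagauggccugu
mmu-miR-370-3p (in Rian): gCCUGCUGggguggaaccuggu
mmu-miR-770-5p (in Meg3): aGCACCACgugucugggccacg

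In the table, the 2 miRNA genes of Meg3 and the 13 listed of Mirg were at 0 in every library, and of 2 listed for Rian the highest value in any library was 2.11. The values of Meg3, Rian and Mirg therefore describe the host RNAs, and no statement on the miRNAs can be made from them.

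The repeats of Miat are shown because they are the part of the RNA known to bind splicing factor 1. The motif ACTAAC was searched on the transcript strand of the longest annotated transcript of each gene. Miat held 11 copies, or 1.20 per kilobase, 6 of them preceded by T. The median per kilobase of 3828 lincRNA transcripts longer than 1 kb was 0, but these were not matched for length to the Miat transcript (9163 bases). Neat1 held 4, Meg3, Mirg and Snhg11 1 each, and the other 4 genes none. Bases 4923 to 5072 of the Miat transcript carry 4 of its 11 copies, in capitals.
Miat repeat stretch: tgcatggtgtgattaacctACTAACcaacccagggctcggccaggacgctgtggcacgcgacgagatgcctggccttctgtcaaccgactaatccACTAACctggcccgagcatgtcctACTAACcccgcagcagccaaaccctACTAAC

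The start of Snhg11 is shown because Snhg11 is the gene that differed between the lines, and that of Dlx6as1 for contrast, since its RNA was near the counting floor in the Ce. Both run from 250 bases before to 50 bases after the start of a RefSeq transcript. Motifs were searched on both strands and compared with 32851 mouse promoters of this length. The CRE, TGACGTCA, was held by 1.79% of these and CCAAT by 37.4%. For TATAAA the share was 13.6% and for GGGCGG, the GC box, 35.7%. The homeodomain core TAATTA was in 5.29%. The window of Snhg11, chr2:158375463-158375762 on the plus strand, held none of them and has no capitals. It was 60.0% GC with 21 CpG sites, where the medians over all promoters were 52.7% and 7.
Snhg11 promoter: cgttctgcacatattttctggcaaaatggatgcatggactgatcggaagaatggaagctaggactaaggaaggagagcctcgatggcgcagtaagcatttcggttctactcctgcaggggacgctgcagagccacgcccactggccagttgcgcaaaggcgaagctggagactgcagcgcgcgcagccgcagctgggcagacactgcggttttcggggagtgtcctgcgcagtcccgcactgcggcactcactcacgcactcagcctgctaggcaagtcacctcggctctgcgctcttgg
Dlx6as1 has another RefSeq start, not shown, whose window, chr6:6861634-6861933, held TATAAA 2 times, TAATTA 1 time and no CCAAT. The window of Dlx6as1 shown, chr6:6869484-6869783 on the minus strand, was 35.7% GC with 5 CpG sites. It held TAATTA and CCAAT 2 times each, in capitals, 1 of the CCAAT copies on the opposite strand.
Dlx6as1 promoter: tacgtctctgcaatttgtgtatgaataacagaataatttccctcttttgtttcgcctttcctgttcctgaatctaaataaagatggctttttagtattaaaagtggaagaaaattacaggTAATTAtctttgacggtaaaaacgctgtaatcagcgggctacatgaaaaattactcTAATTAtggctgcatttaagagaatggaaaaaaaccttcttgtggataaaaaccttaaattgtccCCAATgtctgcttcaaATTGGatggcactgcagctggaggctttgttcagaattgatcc

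Levels were compared between genes per kilobase of annotated exon, in CPM (counts scaled to the same total in each library) per kilobase. In the Ce, Snhg11 (157 ± 52.9, SD, n = 8) and Meg3 (147 ± 15.2) led, followed by Malat1 (69.4 ± 19.4) and Rian (46.3 ± 2.23). Mirg (4.0 ± 0.247), Neat1 (2.42 ± 0.752) and Miat (2.15 ± 0.755) were under the median of 5.76 over 14595 genes, and Dlx1as (0.0555) and Dlx6as1 (0.0138) were near the floor. In the St, the same 4 genes led, with Snhg11 at 196 ± 20.7 (SD, n = 7), Meg3 at 188 ± 20.6, Malat1 at 67.9 ± 9.44 and Rian at 48.8 ± 2.18. Miat (26.1 ± 3.45), Dlx1as (15.8 ± 1.88) and Dlx6as1 (10.2 ± 1.34) were above the St median of 5.29, and Mirg (2.54 ± 0.272) and Neat1 (1.45 ± 0.445) below it. The name abundant thus holds for Snhg11, Meg3, Malat1 and Rian in both regions, which ranked in the top 0.829% to 6.54% of genes. Per kilobase of annotated exon it is not borne out for Mirg and Neat1 in either region.

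Not every step of this order exceeded the spread between libraries. Snhg11 and Meg3 overlapped in both regions, and in the Ce Snhg11 was the higher in the 4 CeCo libraries and the lower in the 4 CeHi libraries. Malat1 and Rian overlapped in the Ce, with Malat1 higher in 7 of 8 libraries, as did Neat1 and Miat, with Neat1 higher in 6 of 8, and Dlx1as and Dlx6as1. All other neighbours in the order were separate in every library. With the longest transcript in place of all exons as the length, Rian (104 in the Ce, 110 in the St) came above Malat1 (69.4 and 67.9), whose length did not change, and in the St Dlx1as (36.7) came above Miat (26.5), so the order of both pairs depends on the annotation. Mirg (7.63 in the Ce, 4.84 in the St) stayed under the medians for that length, 7.76 and 7.19, in the Ce only just. The length of Neat1, 20771 bases, did not change either, so its values (2.42 and 1.45) could not move with this choice. A level of Neat1 over a shorter transcript was not computed.

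**Figure D1:**
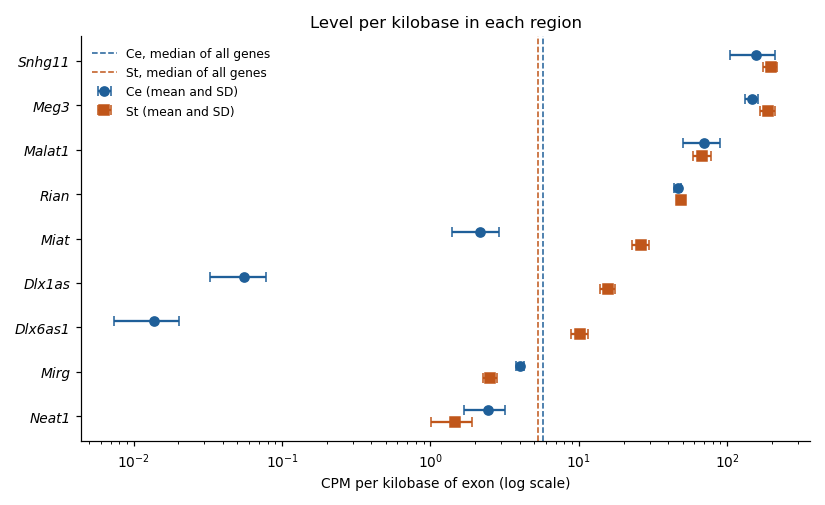
Mean level of each long noncoding RNA in CPM per kilobase of exon (log axis) in the Ce (n = 8) and the St (n = 7), with the SD over libraries as bars and the median of all genes as dashed lines. Snhg11, Meg3, Malat1 and Rian lie above the medians in both regions, Mirg and Neat1 below them in both, and Miat, Dlx1as and Dlx6as1 only in the Ce.

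Together the 9 RNAs took 0.599% of all normalised counts in the CeCo libraries (0.598 to 0.601), 0.485% in CeHi (0.420 to 0.549), 0.688% in StCo (0.633 to 0.798) and 0.668% in StHi (0.651 to 0.687). Meg3 was among the 9 most counted genes in all 15 libraries. Snhg11 ranked 14 to 21 in CeCo and 64 to 82 in CeHi, and 13 to 29 in StCo and 29 to 32 in StHi.

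**Figure D2:**
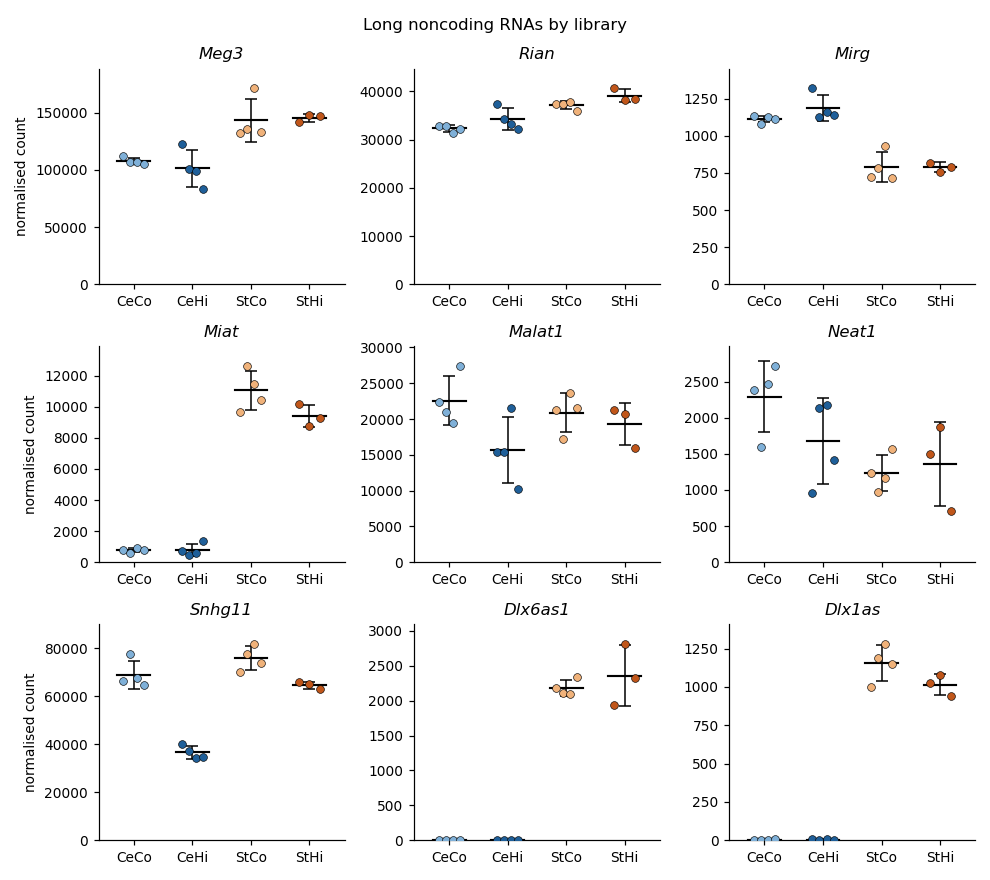
Normalised count of each of the 9 RNAs in every library, by group (CeCo, CeHi, StCo, StHi), with points for libraries and a line at the group mean, on axes that start at 0. The CeHi libraries of Snhg11 lie at 34410.6 to 40238.4, below all other libraries, and Dlx6as1 and Dlx1as lie near 0 in the Ce.

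The first comparison asked how the lines differed within the Ce. Snhg11 was measured at 66320.1, 77707.9, 67572.7 and 64699.2 normalised counts in the CeCo libraries and at 40238.4, 37236.8, 34410.6 and 34582.5 in the CeHi libraries. The highest CeHi library thus lay well below the lowest CeCo library. On the log2 scale the difference was -0.92 (SE 0.07, 95% interval -1.06 to -0.78, limma adjusted p = 1.0e-07), a change of -47.2% with an interval of -52.1% to -41.7%. As a share of all normalised counts, Snhg11 went from 0.175% (0.166 to 0.193) in CeCo to 0.0927% (0.0882 to 0.101) in CeHi. It was 1 of the 9 RNAs called, against 5.94% of all 15213 genes tested and 2.99% called lower. It was also the only one whose groups did not overlap, against 13.6% of all genes and 7.03% of genes lower in this way. By p it ranked 26 among all genes, by the size of its change 253, and among the 903 genes called it had the highest mean count. Without CeHi replicate 3 the difference was -0.89 (adjusted p = 8.63e-07). Within the Ce, the p-values measure the spread between these samples, each from an individual mouse. Tests that join the regions treat Ce and St samples as independent, since the replicate numbers were not taken to pair them.

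The nuclear RNAs Malat1 and Neat1 varied more between libraries of a group than most genes. Malat1 was measured at 22364.9, 21002.8, 19428.5 and 27387.2 in CeCo and at 15414.4, 15436.3, 21585.6 and 10198.1 in CeHi. A single CeHi library, replicate 2, reached into the CeCo range. The difference of -0.57 (SE 0.19) did not pass the threshold (adjusted p = 0.104), and was -0.38 without CeHi replicate 3 (adjusted p = 0.216) and -0.74 without CeHi replicate 2 (adjusted p = 0.0206, past the threshold). Neat1 read 2388.68, 1588.71, 2472.83 and 2713.61 in CeCo and 958.618, 2139.33, 2181.35 and 1413.99 in CeHi, with overlapping groups and a difference of -0.51 (SE 0.33, adjusted p = 0.444). The coefficient of variation of Neat1 was 20.0% to 43.2% in the 4 groups and that of Malat1 12.9% to 29.7%, where the median gene had 7.22% to 8.30%.

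The 3 RNAs of the imprinted domain did not pass the test between the lines in the Ce. Meg3 was measured at 112033, 107248, 107340 and 104988 in CeCo and at 122938, 101070, 98910 and 83190.7 in CeHi. The CeHi libraries spread on both sides of the CeCo libraries, with CeHi replicate 3 the lowest, and the difference was -0.11 (adjusted p = 0.596), or -0.01 without that library (adjusted p = 0.962). Rian differed by 0.08 (adjusted p = 0.434), from 32349 ± 700 (SD, n = 4) to 34282 ± 2268, and Mirg by 0.08 (adjusted p = 0.595), from 1113 ± 21.5 to 1187 ± 89.9.

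Miat was the RNA in which CeHi replicate 3 departed most, at 1373.83, which is 2.22 times the mean of the other CeHi libraries (739.145, 495.801 and 619.669). The CeCo libraries lay at 757.705, 617.833, 916.431 and 776.59. The difference between the lines was -0.03 with this library (adjusted p = 0.964) and -0.32 without it (adjusted p = 0.264), and passed in neither case. In the same library, Malat1 was at 0.583 and Meg3 at 0.773 of the mean of the others. The genes closest to Miat over the 15 libraries, Col25a1, Slit1 and Cpne6, stood high there too, at 250.46, 141.61 and 464.989. They were picked by their correlation with Miat over libraries that include this one, so their high values there are no separate observation. The summed level of 6 cortical projection neuron markers was 27961 in this library, the highest of CeHi (24353 to 24924 in the others) and within the CeCo range of 25444 to 30637. Without Slc17a7, the vesicular glutamate transporter gene that granule cells also express, the other 5 summed to 277 there and to 281 to 314 in the other CeHi libraries. The level of the 13 striatal projection neuron markers was 16898, the lowest of CeHi, and that of 4 blood cell markers 4416, the highest of all libraries. Their part in the values of Miat and Malat1 was not tested.

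Dlx6as1 and Dlx1as were counted in 1 to 5 and 1 to 6 fragments per Ce library, so that a difference between the lines was not detectable there at this depth. Over all 9 RNAs the median log2 difference in the Ce was -0.10, against -0.00 over all genes tested, and 6 of 9 were negative, Dlx6as1 among them. That median is the value of Dlx6as1 itself and so rests on a few fragments. Neither figure is a result about the set.

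**Figure D3:**
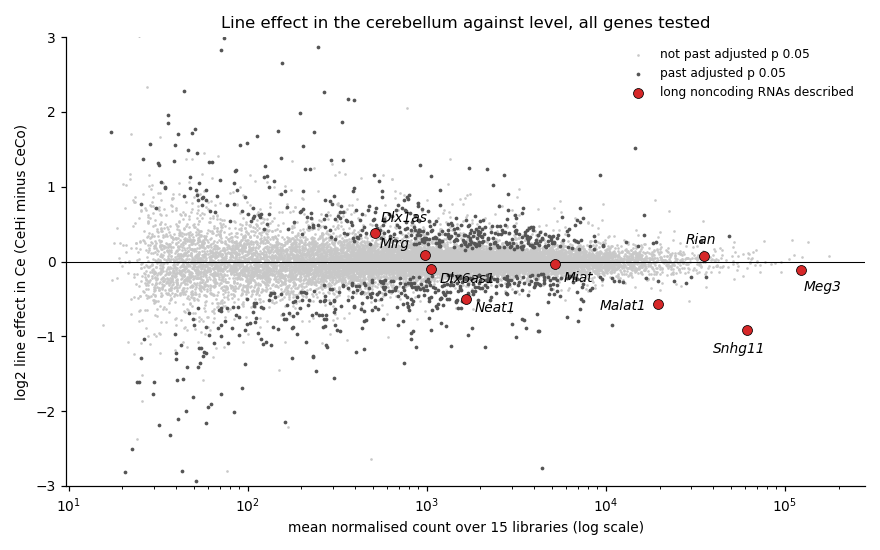
Log2 line effect in the Ce (CeHi minus CeCo) against the mean normalised count over 15 libraries (log axis) for the 15213 genes tested, with genes past adjusted p 0.05 in dark grey and the 9 RNAs in red. Snhg11 at -0.92 has the highest mean count of the 903 genes past the threshold, the other 8 RNAs did not pass it, and 29 genes beyond 3 on the log2 axis are outside the plot.

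The line comparison in the St called none of the 9 RNAs, against 2.66% of all genes, with limma. At an unadjusted p under 0.05 there was 1, Snhg11, which DESeq2 on recovered fragments called and edgeR did not. Snhg11 was measured at 70072.7, 77494.5, 81827.0 and 73992.1 in StCo and at 65885.2, 65074.0 and 63025.0 in StHi. The groups did not overlap, with a difference of -0.23 (SE 0.07, 95% interval -0.39 to -0.08), at an adjusted p of 0.104. With sample quality weights the difference was -0.24 (adjusted p = 0.0476) and with DESeq2 -0.23 (adjusted p = 0.0431), both just past the threshold. Rian was the other RNA whose St groups did not overlap, at 37478.4, 37323.0, 37750.2 and 35930.6 in StCo and 40665.6, 38171.0 and 38442.2 in StHi, with a difference of 0.07 (adjusted p = 0.654). These 2 of 9 stand against 13.1% of all genes whose St groups did not overlap.

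The other 7 RNAs overlapped between the St lines. Meg3 read 132727, 136088, 171581 and 133213 in StCo and 141801, 148204 and 147625 in StHi, the StCo replicate 2 being the highest of all libraries (difference 0.03, adjusted p = 0.957). Miat was at 9673.25, 12613.8, 11436.4 and 10465.2 in StCo and at 10183.6, 8744.96 and 9291.44 in StHi (difference -0.23, adjusted p = 0.793). Malat1 differed by -0.12 (adjusted p = 0.879) and Neat1 by 0.05 (adjusted p = 0.981), between group means of 20891 and 19304 and of 1232 and 1358. Dlx6as1, whose locus makes an RNA and holds enhancers of Dlx5 and Dlx6, was at 2184 ± 111 (SD, n = 4) in StCo and 2358 ± 437 (SD, n = 3) in StHi, and Dlx1as at 1155 ± 116 and 1014 ± 69.7. Neither passed (adjusted p = 0.947 and 0.863). In the St, the summed oligodendrocyte markers did not overlap between the lines, at 204534 to 294895 in StCo and 312880 to 354424 in StHi, and their part in the St values was not tested.

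The interaction asked whether the line effect differed between the regions, and Snhg11 was again the 1 RNA called, against 0.532% of all genes and 0.276% called lower. Its line effect was lower in the Ce than in the St by 0.69 on the log2 scale (SE 0.10, 95% interval -0.89 to -0.48, adjusted p = 0.00333), and by 0.67 without CeHi replicate 3 (adjusted p = 0.00596). It ranked 11 by p among all genes and had the highest mean count of the 81 genes called. For the other 8 RNAs the adjusted p of the interaction was 0.694 or above. Over both regions together, Snhg11 was lower in Hi by 0.58 (SE 0.05, adjusted p = 5.5e-07), 1 of 9 called against 8.48% of all genes and 4.14% called lower. Malat1 gave -0.35 (adjusted p = 0.161). The summed granule cell markers were at 267348 to 303721 in CeCo and 245345 to 272913 in CeHi, and those of Purkinje cells at 255343 to 308727 and 251278 to 293064. Both overlapped, and their part in the Snhg11 result was not tested.

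**Figure D4:**
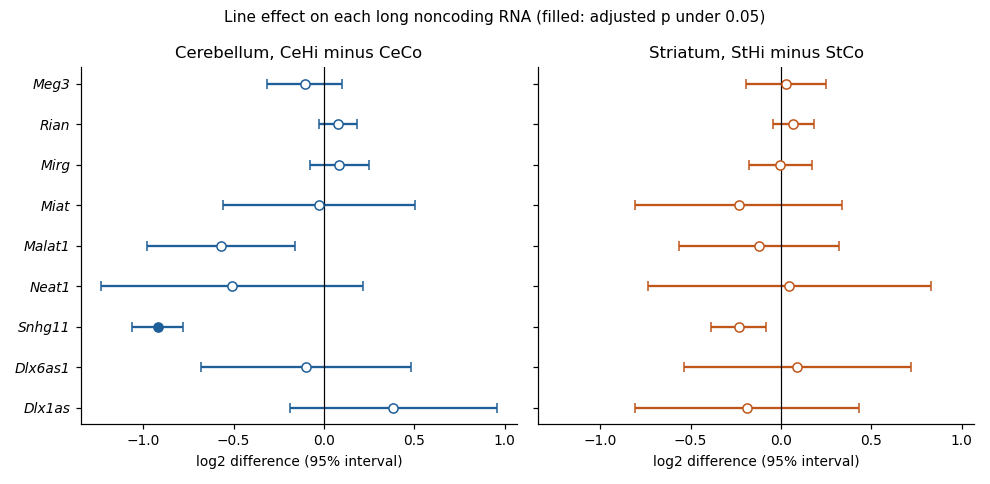
Log2 line effect (Hi minus Co) on each of the 9 RNAs with its 95% interval, in the Ce and in the St, filled where the adjusted p was under 0.05. Snhg11 in the Ce, at -0.92, is the only filled point, and in the St it lies at -0.23.

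The neighbours of Snhg11 did not pass the test between the lines. Of the genes within 100 kb of it, 3 were tested, and in the Ce 9430008C03Rik, 14058 bases away on the opposite strand, differed by -0.28 (adjusted p = 0.124), Ralgapb, a Ral GTPase activating subunit, by -0.01, and Lbp, which codes for lipopolysaccharide binding protein, by -0.07. The genes whose log2 values followed Snhg11 most closely over 15 libraries, each region mean removed, were Zfp687 (Pearson r = 0.970), A630081J09Rik (0.965) and A430033K04Rik (0.953), and without CeHi replicate 3 the values were 0.963, 0.957 and 0.949. These points share 4 groups that differ, and the likeness is a description. A630081J09Rik fell from a mean normalised count of 171 in CeCo to 5.71 in CeHi (-4.68, adjusted p = 8.81e-09) and from 248 in StCo to 47.3 in StHi (-2.31, adjusted p = 0.000142). Zfp687, a zinc finger gene, fell by 0.40 in the Ce (adjusted p = 0.000198) and gave -0.10 in the St (adjusted p = 0.490), and A430033K04Rik fell by 0.53 (adjusted p = 1.29e-05) and by 0.26 (adjusted p = 0.0304).

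Other host and noncoding RNAs were examined from a list. Of its 55 members, among them the snoRNA hosts Gas5, Zfas1 and Snhg1, 32 were in the table and 29 were tested. With limma none was called in either line comparison, over both regions or in the interaction, where 5.94% (Ce), 2.66% (St), 8.48% and 0.532% of all genes were. At an unadjusted p under 0.05 there were 3 in the Ce, 1 in the St, 3 over both regions and 1 in the interaction, edgeR called none, and DESeq2 called 1 in the Ce and 2 over both regions. The median log2 line effect of these 29 RNAs was 0.00 for the Ce and 0.04 for the St. Between the regions 11 were higher and 14 lower in the Ce, near the 80.2% of all genes called, led by Six3os1 with -7.93, Gm2694 with 6.11 and Emx2os with -5.62. Of 15 listed RNAs that lack a poly(A) tail, 5 were tested. None was called between the lines in the Ce or the St by limma, edgeR or DESeq2, with 1 at an unadjusted p under 0.05 in each, while over both regions 1 was higher in Hi, and 2 were higher in the Ce than in the St. Their summed level overlapped between all groups, at 1514 to 2040 in CeCo, 1469 to 1931 in CeHi, 1389 to 2222 in StCo and 1699 to 2086 in StHi.

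The region comparison (Ce minus St, both lines together) called 8 of the 9 RNAs, 2 higher and 6 lower in the Ce, against 80.2% of all genes, 40.6% higher and 39.6% lower. Groups of Ce and St libraries did not overlap for 5 of 9, against 55.1% of all genes. These shares are near the background and are no result about the set. The median over the 9 was -0.47, against 0.01 over all genes.

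Miat showed the largest region difference of the RNAs that were well counted in both regions. Its Ce libraries lay at 495.801 to 1373.83 and its St libraries at 8744.96 to 12613.8, a gap of several fold with no overlap. The difference was -3.76 (SE 0.18, adjusted p = 2.57e-10), or 13.5-fold (10.3 to 17.7) higher in the St, and -3.90 without CeHi replicate 3. Crybb1, a crystallin gene 26420 bases from Miat on the opposite strand, was lower in the Ce, at -2.57, while Tpst2, 47296 bases away, gave -0.05 (adjusted p = 0.368). A share of 24.2% of the 50-base windows of Miat also occurs in transcripts of other genes, and how the counting treated such reads is not given in the sources used here.

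Dlx6as1 and Dlx1as were named by the study for their region difference, so their values are given as a description. In the St, Dlx6as1 was measured at 2184.72, 2108.72, 2101.2 and 2341.13 in StCo and 1940.47, 2812.37 and 2321.37 in StHi, and Dlx1as at 1001.02, 1187.89, 1280.04 and 1149.08 in StCo and 1023.42, 1078.92 and 940.424 in StHi. Over the 8 Ce libraries, 24 fragments of Dlx6as1 were counted against 14811 over the 7 St libraries. The level in the Ce was 0.132% of that in the St (95% exact interval 0.0844 to 0.196, for counting error only). Dlx1as had 31 fragments against 7180, or 0.351% (0.238 to 0.499). All 12 tested genes of the list of Dlx genes and GABA synthesis were lower in the Ce, against 39.6% of all genes, among them Dlx5 with -8.83 and Dlx6 with -8.69, while Gad1, the GABA-synthesizing enzyme that Purkinje cells and other cerebellar neurons also express, gave -0.29 and Gad2 -1.80. Other genes near Dlx1as went the other way: Metap1d, which overlaps it on the opposite strand, and Hat1, 74832 bases away, were both higher in the Ce by 0.65.

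In the St, both antisense RNAs had higher counts than their Dlx neighbours, with the limit on strand given above for Dlx1as and Dlx1. These counts are not per kilobase, so the ratios also depend on the lengths of the genes (5173 exon bases for Dlx6as1, 1630 for Dlx1as). Which RNA had more molecules cannot be read from them. Dlx1as was at 134% ± 18.2 (SD, n = 7) of Dlx1, and Dlx6as1 at 268% ± 28.1 of Dlx6 and 314% ± 41.6 of Dlx5, which lies 6213 bases away on the same strand. None of these ratios passed between the St lines, where that of Dlx1as to Dlx1 moved most, by 0.07 on the log2 scale. In the Ce, only Dlx5 of this list was called between the lines by limma (adjusted p = 0.00102), and edgeR called none of its 12 genes. It was listed at 0 in all CeCo libraries with a mean of 1.65 in CeHi, which is under the floor of 3 fragments, so no fold is given.

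Within the imprinted domain, the 3 RNAs did not move in step between the regions. Meg3 was lower in the Ce, by 0.47 (SE 0.07, adjusted p = 1.03e-05), or 1.39-fold higher in the St, with Ce libraries at 83190.7 to 122938 and St libraries at 132727 to 171581, but by only 0.17 with quantile normalization (adjusted p = 0.0439). Mirg went the other way. It was measured at 1130.5, 1082.32, 1124.63 and 1113.23 in CeCo, 1320.2, 1126.63, 1160.61 and 1140.28 in CeHi, 722.068, 784.342, 932.465 and 718.52 in StCo and 819.771, 753.591 and 787.249 in StHi. All Ce libraries were above all St libraries, by 0.54 (SE 0.06, adjusted p = 1.05e-07), or 1.46-fold. Rian, measured at 31400.1 to 37472.7 in the Ce and 35930.6 to 40665.6 in the St, was lower in the Ce by 0.20 (SE 0.04, adjusted p = 8.39e-05), but by quantile normalization the sign turned, to 0.06 (adjusted p = 0.210), so that its direction depends on the scaling.

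Ratios within a library do not depend on any factor per library. Quantile normalization is not such a factor and was not applied to them. Mirg was at 1.11% ± 0.119 of Meg3 in the Ce (SD, n = 8) and 0.546% ± 0.0244 in the St (n = 7), a log2 difference of 1.01. Mirg stood at 3.45% ± 0.108 of Rian in the Ce and 2.08% ± 0.182 in the St, a difference of 0.74. Rian was at 32.1% ± 3.21 of Meg3 in the Ce and 26.4% ± 2.23 in the St, a difference of 0.28. Each of the 3 gave a two-sided exact permutation p of 0.000155, the smallest that 8 against 7 libraries allow, and 0.00109 adjusted over 21 comparisons (7 ratios in 3 comparisons). No Ce library overlapped with a St library in any of the 3, and 4 of the 21 comparisons passed in all.

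Between the lines in the Ce, the ratio of Mirg to Meg3 was 1.01% to 1.06% in CeCo and 1.07% to 1.37% in CeHi. These ranges did not overlap, but the two-sided exact permutation p of 0.0286 is the smallest that 4 against 4 libraries allow and was 0.10 after adjustment. The ratio of Rian to Meg3 ran from 29.3% to 30.7% in CeCo and from 30.5% to 38.8% in CeHi, the highest in CeHi replicate 3 (difference 0.18, exact permutation adjusted p = 0.235). Without that library the differences were 0.12 for Mirg to Meg3 (exact permutation adjusted p = 0.10) and 0.12 for Rian to Meg3 (adjusted p = 0.257). Within the St, none of these 3 ratios passed between the lines.

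**Figure D5:**
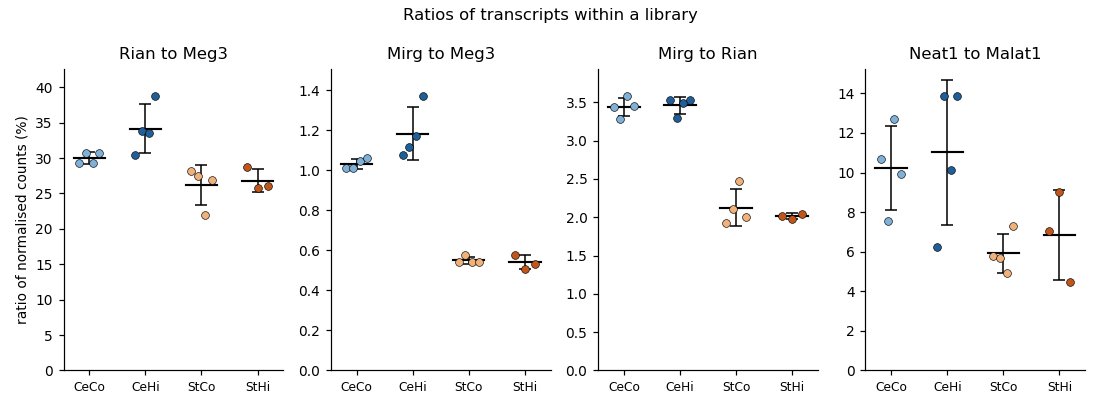
Ratio of normalised counts within a library, in percent, for Rian to Meg3, Mirg to Meg3, Mirg to Rian and Neat1 to Malat1, by group, with points for libraries and a line at the group mean. Mirg to Meg3 lies at 1.01% to 1.37% in the Ce and at 0.508% to 0.578% in the St, and Neat1 to Malat1 overlaps between the regions.

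The list for the Dlk1-Dio3 domain, which is not limited to genes between Dlk1 and Dio3, held 10 other tested genes. Of these 10, 8 were lower and 1 higher in the Ce, where 39.6% of all genes were lower and 40.6% higher. Dlk1, the paternally expressed ligand gene at 1 end of the domain, gave -4.14, Dio3, the thyroid hormone deiodinase gene at the other end, -3.77, and Begain -2.81. Rtl1, which lies between Meg3 and Rian on the opposite strand, gave -1.85. Slc25a29 was the 1 higher gene, by 1.1, and Yy1 did not pass (-0.08, adjusted p = 0.111). Between the lines, 2 of the 10 passed in the Ce, Begain with 0.33 (adjusted p = 0.0328) and Wdr25 with -0.88 (adjusted p = 7.52e-06), against 5.94% of all genes, and none in the St, against 2.66% (2 at an unadjusted p under 0.05, 0 with edgeR and 2 with DESeq2). None of the 10 was called in the interaction by limma or edgeR, where 2 had an unadjusted p under 0.05 and DESeq2 called 2.

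Among the nuclear RNAs, Malat1 did not pass between the regions (-0.12, SE 0.14, adjusted p = 0.437, and 0.03 with quantile normalization), and its Ce libraries, at 10198.1 to 27387.2, enclosed its St libraries, at 15942.1 to 23615.1. Neat1 was higher in the Ce by 0.61 (SE 0.24, adjusted p = 0.0374), or 1.52-fold, with StCo at 1229.37, 975.234, 1159.28 and 1565.94 and StHi at 1495.56, 1864.56 and 714.817. The regions overlapped, and the call was lost when any of 9 libraries was left out (CeCo replicates 0, 2 and 3, CeHi replicates 1 and 2, StCo replicates 0, 1 and 2, and StHi replicate 2), with differences between 0.40 and 0.61 and an adjusted p of up to 0.101. The ratio of Neat1 to Malat1 was 10.6% ± 2.80 in the Ce (n = 8) and 6.31% ± 1.57 in the St (n = 7), a difference of 0.74 (exact permutation p = 0.00435, adjusted 0.0228). The summed level of 8 choroid plexus markers ran from 1810 to 117675 in CeCo and from 1493 to 113952 in CeHi. In the St it ran from 1438 to 2343 in StCo and from 2078 to 18735 in StHi. The part of choroid plexus tissue in the Neat1 values was not tested.

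The genes of proteins that work with these nuclear RNAs were read from 2 lists. Of 21 paraspeckle proteins, 2 were lower in CeHi, the RNA-binding proteins Dazap1 (-0.22, adjusted p = 0.0265) and Cirbp (-0.63, adjusted p = 0.034), where 2.99% of all genes were called lower. None passed in the St (3 at an unadjusted p under 0.05, 0 with edgeR and 1 with DESeq2), and 11 were higher and 2 lower in the Ce than in the St, against 40.6% higher and 39.6% lower over all genes, led by Tardbp with 0.61, Rbm14 with 0.49 and Rbm3 with 0.43. Of 22 nuclear speckle and splicing genes, Srrm2, a scaffold of speckles, was lower in CeHi (-0.29, adjusted p = 0.0457), a call that edgeR did not make, none passed in the St (2 at an unadjusted p under 0.05, 0 with edgeR and 1 with DESeq2), and 14 were higher and 3 lower in the Ce than in the St, read against the same shares, with Celf3 at -2.11, Rbfox1 at -0.87 and Srsf1 at 0.66. Sf1, which codes for splicing factor 1, the protein that Miat repeats bind, did not pass in either line comparison or between the regions (-0.03, adjusted p = 0.528). Within 100 kb, 11 genes were tested near Malat1 and 12 near Neat1, in part the same genes. Among them 2 were called between the lines in the Ce, against 5.94% of all genes. These were Fam89b (0.55, and 0.45 in the St, where it also passed) and Cdc42ep2 (0.69, adjusted p = 0.00120). Pola2, near Neat1, passed over both regions only (-0.40, adjusted p = 0.00669), where 8.48% of all genes did. Near Miat, 1 of 3 genes tested was called in the Ce, Crybb1, which was lower in CeHi by 0.98.

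Snhg11 was also lower in the Ce than in the St, by 0.48 (SE 0.05, adjusted p = 7.36e-08) or 0.26 with quantile normalization, but its regions overlapped. The CeHi libraries were the low ones, since CeCo averaged 69075 ± 5874 (SD, n = 4), StCo 75847 ± 5009 (n = 4), StHi 64661 ± 1474 (n = 3) and CeHi 36617 ± 2739 (n = 4).

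Within groups, the RNAs of a locus were positively correlated over the 15 libraries, but so were some RNAs of different loci. These values are a description over points that share library, depth and RNA preparation. The correlation of log2 values, group means removed, was 0.79 for Meg3 and Mirg, 0.70 for Meg3 and Rian, 0.57 for Rian and Mirg, and 0.54 for Malat1 and Neat1. Without CeHi replicate 3 these were 0.88, 0.55, 0.58 and 0.63 over 14 libraries. Pairs that share no locus reached values of this size too. Meg3 and Snhg11 gave 0.62, and 0.58 without that library, Rian and Snhg11 0.57 and 0.51, and Mirg and Snhg11 0.52 and 0.50. Miat and Dlx1as went from 0.19 to 0.67 without CeHi replicate 3, and Mirg and Miat from 0.17 to 0.59. Miat and Malat1 gave -0.60, which became -0.09 without that library.

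The genes whose pattern was most like each other RNA, by the same measure as for Snhg11, were Yeats2 for Meg3 (r = 0.880, 0.777 without CeHi replicate 3), Rnf146 for Rian (0.837), Pcgf6 for Mirg (0.805), Col25a1 for Miat (0.931, 0.852 without that library), Leprel2 for Malat1 (0.914, 0.830), Josd2 for Neat1 (0.904, 0.932), Sp9 for Dlx6as1 (0.865) and Sag for Dlx1as (0.835). Sp9, a zinc finger factor of striatal projection neurons, was itself on the list of Dlx genes and GABA synthesis. Rnf146 was the only one of these 8 that passed between the lines, higher in CeHi by 0.21 (adjusted p = 0.0143) and in StHi by 0.21 (adjusted p = 0.0451).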

How the data were processed

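Cerebellum (n = 8) and striatum (n = 7) samples were sequenced with paired-end reads. As the authors' notes and methods state, reads were mapped to GRCm38 with TopHat2 and gene counts normalised for library size with Cuffnorm 2.2.1. The deposited table holds this signal per gene: its values are whole fragments divided by 1 factor per library, not per length, although it is named for FPKM. Between 99.6% and 99.8% of low values were whole multiples of a library's step, within 0.1.

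The 9 RNAs and all gene lists were chosen with earlier results of these data known. Samples were grouped by the labels. Genes with at least 1 CPM in 3 samples (15213) were scaled by TMM (edgeR 4.0.16, factors 0.993 to 1.01), and log2(value + 1) was fitted with 4 group means in limma 3.58.1 (R 4.3.3; trended, robust moderation), with Benjamini-Hochberg adjustment over all genes and a threshold of 0.05. Fold changes are on this scale and understate changes of low genes. Ratios were tested by exact permutation. The rule for naming genes besides the 9 RNAs took list genes past the threshold in a line contrast or the interaction (up to 6 per list), the 3 of each list with the largest region effect, genes within 100 kb, and the 3 genes most correlated with each RNA; Yy1, Gad1, Gad2 and Sf1 were added after their values were seen, and not all genes the rule takes are printed: of neighbours and correlated genes those beside a result, and 1 list gene is not reported here. Annotation matched 22467 symbols directly and 2077 through older names. Counts of 15213 genes were simulated with 2-fold line changes in some of them. Unlike the data, the simulation held no differences between the regions, so genes near the floor in 1 region only were not represented. For the line effect in the Ce, 95.5% of 400 changed genes were recovered, and 5.21% of the calls were false. In the St, 91.5% of 200 were recovered with 7.58% of calls false, and for the interaction 83% of 200 with 5.68% false. Alternatives were other pseudocounts, filters, scalings and moderation, edgeR and DESeq2 1.42.0 on recovered fragments, replicate blocks and leaving out each library. Depth limits Dlx6as1 and Dlx1as in the Ce; the floor was 3 fragments.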

Additional observations from a re-analysis of the deposited data

Results flagged for a closer look

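Meg3 in the StCo group held a library far from the others: StCo replicate 2 was at 171581 normalised counts, and its gap to the nearest of the other 3 took 0.913 of the whole range, over the limit of 0.829 for 4 samples. It was the only 1 of 27 groups tested, where chance gives about 1 in 20.

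The line effect on Snhg11 differed between the regions, by -0.69 on the log2 scale (Ce line effect minus St line effect, limma adjusted p = 0.00333), with -0.92 in the Ce and -0.23 in the St.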

How the results depend on the processing

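Snhg11 kept its direction and its side of the threshold in the Ce (-0.92 to -0.84), over both regions (-0.59 to -0.52) and in the interaction (-0.69 to -0.65, adjusted p up to 0.00929) under every alternative run, and when any library was left out (interaction -0.74 to -0.63, adjusted p 0.00227 to 0.0118). In the St, 1 of the 9 RNAs was called with sample quality weights and 1 with DESeq2, Snhg11 in both. Leaving out a library gave 1 to 2 RNAs called in the Ce and 1 to 2 over both regions. The second was Malat1 without CeHi replicate 2, at -0.74 (adjusted p = 0.0206) in the Ce and -0.42 (adjusted p = 0.0418) over both regions. Between the regions 7 to 8 were called, the changes being Neat1 and, under quantile normalization, Rian, whose sign turned to 0.058 (adjusted p = 0.210), while Meg3 went from -0.47 to -0.17 and Snhg11 from -0.48 to -0.26.

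With a pseudocount of 10, 7 ratios passed in place of 4, and that of Dlx1as to Dlx1 (Ce minus St) turned from 0.09 to -0.26; the Ce counts behind these ratios are below the pseudocount. The number of genes called in the interaction was 81, and 277 with DESeq2 and 182 with quality weights.

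The replicate numbers were not taken to pair the samples: residuals of same-numbered Ce and St libraries correlated at 0.171 to 0.278 in Co, each best with its own number, but at -0.0751 to 0.0513 in Hi. With the number as a replicate block, Neat1 between the regions was 0.58 (adjusted p = 0.0866), and with a block within line 0.63 (adjusted p = 0.0641); no other call on the 9 RNAs changed. The cause of the changes above was not tested.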
